A study of Mus musculus with 6 samples.

Results

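The mesoderm, endoderm and trophectoderm regulators followed here are 10 mouse genes chosen by name, as a check of culture purity in an expression series on embryonic stem cells (ESCs) and neural precursor cells (NPCs). They are T, Eomes and Mixl1 of the primitive streak and mesoderm, Gata4, Gata6, Sox17, Foxa2 and Afp of the endoderm, Cdx2 of the trophectoderm and Fgf5 of the early epiblast. All 10 had a row among the 17144 genes of the table. The wild type ESCs were the blastocyst-derived line V6.5 on a 129SvJae/C57B6 F1 background, grown with serum and LIF, and no genetic change or drug separated the groups. The NPCs, also wild type, came from these ESCs by differentiation in culture and were maintained in N3 medium, with the growth factors bFGF and EGF. Each cell type was measured on 3 Affymetrix mouse arrays, 1 per biological replicate (ES1, ES2 and ES3, and NP106, NP107 and NP39, numbered 1 to 3 here), and both stand for a single cell line. Values are on the log2 scale after robust multi-array average (RMA) processing, so that a difference of 1 is a doubling.

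In the embryo, the epiblast passes through the primitive streak to form mesoderm and definitive endoderm, while the primitive endoderm and the trophectoderm separate earlier and form extraembryonic tissue. Each step is marked by transcription factors that are commonly used to find unwanted lineages in stem cell cultures. ESCs in serum with LIF are known to hold some cells that express primitive endoderm or streak genes, and a neural culture of high purity is expected to lack them. Some of these genes, among them Fgf5 and Foxa2 with its relative Foxa1, are also active in parts of the nervous system. Such genes mark more than the germ layer they are listed under, and the genes named here are not a full list.

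Transcription start windows are shown for T and Eomes, which both fell between the cell types, and for Afp. The Afp values lay within the range of the control probe sets for a bacterial trpn transcript. T and Eomes encode T-box factors, whose core recognition letters are AGGTGT, and Afp encodes alpha-fetoprotein, a serum protein of the yolk sac and fetal liver. The windows are from RefSeq (GRCm38.p6), run from 250 bases before to 50 bases after the annotated start and are written on the strand of the gene. Capitals mark TATAAA on the gene strand, AGGTGT or ACACCT, and CCAAT or ATTGG, where ACACCT and ATTGG are AGGTGT and CCAAT read on the opposite strand. The window of T is chr17:8434173-8434472 (+), that of Eomes chr9:118477939-118478238 (+) and that of Afp chr5:90490464-90490763 (+).
T: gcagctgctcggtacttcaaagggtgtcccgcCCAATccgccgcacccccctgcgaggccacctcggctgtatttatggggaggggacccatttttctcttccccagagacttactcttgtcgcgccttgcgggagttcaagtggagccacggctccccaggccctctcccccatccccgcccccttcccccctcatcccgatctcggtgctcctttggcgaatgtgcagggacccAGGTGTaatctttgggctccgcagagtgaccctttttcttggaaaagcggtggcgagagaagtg
Eomes: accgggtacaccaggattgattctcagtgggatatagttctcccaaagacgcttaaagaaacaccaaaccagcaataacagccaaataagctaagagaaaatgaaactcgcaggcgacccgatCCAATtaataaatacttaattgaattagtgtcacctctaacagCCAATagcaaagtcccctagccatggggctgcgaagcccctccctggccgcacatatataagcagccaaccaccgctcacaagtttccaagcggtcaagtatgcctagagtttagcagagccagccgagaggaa
Afp: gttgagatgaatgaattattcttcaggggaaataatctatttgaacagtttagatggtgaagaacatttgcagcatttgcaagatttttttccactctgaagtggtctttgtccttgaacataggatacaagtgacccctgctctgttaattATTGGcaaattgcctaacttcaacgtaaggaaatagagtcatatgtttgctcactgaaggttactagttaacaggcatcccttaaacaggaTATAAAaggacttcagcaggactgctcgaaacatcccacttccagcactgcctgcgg

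The Afp window holds TATAAA and 3 CpG dinucleotides, fewer than the median of 7 over the 32851 windows of the table. The windows of T and Eomes hold 17 and 10 CpG dinucleotides, and neither holds TATAAA. Windows were at hand for T, Eomes, Foxa2, Afp, Cdx2 and Fgf5, and the 7 windows of the 5 genes other than Afp hold between 10 and 29 CpG dinucleotides. AGGTGT or ACACCT stands in the window of T and in that of Fgf5, and in 13.7% of all windows. TATAAA is in 8.32% of all windows, among them those of Afp and Fgf5, and CCAAT or ATTGG in 37.4%. The first base of TATAAA is at -7 from the annotated start in the Afp window. In that of Fgf5 it is at 35, after the start. A match of letters is a description of the window and not a bound site.

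Known markers followed the labels of the cell types. Pou5f1 (OCT4), the POU factor of pluripotent cells, read 12.42, 12.45 and 12.46 in ESCs and 3.68, 3.83 and 3.61 in NPCs. Fabp7, a fatty acid binding protein of radial glia, read 3.72, 3.85 and 3.79 in ESCs and 12.87, 12.76 and 13.53 in NPCs. NPC replicate 3 (NP39) stood apart, with r = 0.978 to 0.979 across genes against the other NPC arrays, which correlated at 0.997. The log2 difference of 3′ from 5′ actin control probe sets, a sign of RNA integrity, was 0.36 to 0.45 in ESCs and 0.26 to 0.43 in NPCs. For the Gapdh control probe sets it was -0.078 to -0.053 in ESCs and -0.16 to -0.099 in NPCs, so that the groups did not overlap, and the part of RNA integrity in the results was not tested. Control probe sets for a bacterial trpn transcript read 2.57 to 3.27 over the 6 arrays, near the low end of the scale. The median of all genes was 5.75 to 5.76 on the ESC arrays and 5.59 to 5.61 on the NPC arrays. These medians did not overlap between the groups either.

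Between ESCs and NPCs, 5 of the 10 regulators fell and none rose. The log2 difference of NPCs from ESCs was -1.98 for Sox17, -1.82 for Gata6, -1.40 for Eomes, -0.73 for Gata4 and -0.69 for T. Mixl1, Foxa2, Afp, Cdx2 and Fgf5 were not called. Calls needed an adjusted p under 0.05 (limma, Benjamini-Hochberg over 17144 genes) together with means that differ over 1.5-fold, and 18.7% of all genes were called lower in NPCs and 15.4% higher. The median difference of the 10 genes was -0.50, beside -0.036 for all genes. At 7 of the 10 genes all NPC arrays lay below all ESC arrays, as at 32.6% of all genes, and at the other 3 the arrays overlapped. The count was 4 of 10 without NPC replicate 3, ESC replicate 1 or ESC replicate 3, with Gata4 not called, and 3 of 10 without ESC replicate 2, with Gata4 and T not called. It was also 3 of 10, without the same genes, with separate variances and no moderation, and after median centring of the arrays, where 3302 of all genes were called higher in NPCs and 2642 lower, against 2638 and 3213 without centring. Arrays average over a culture, so that fewer cells expressing a gene and less RNA per cell cannot be told apart.

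**Figure D1:**
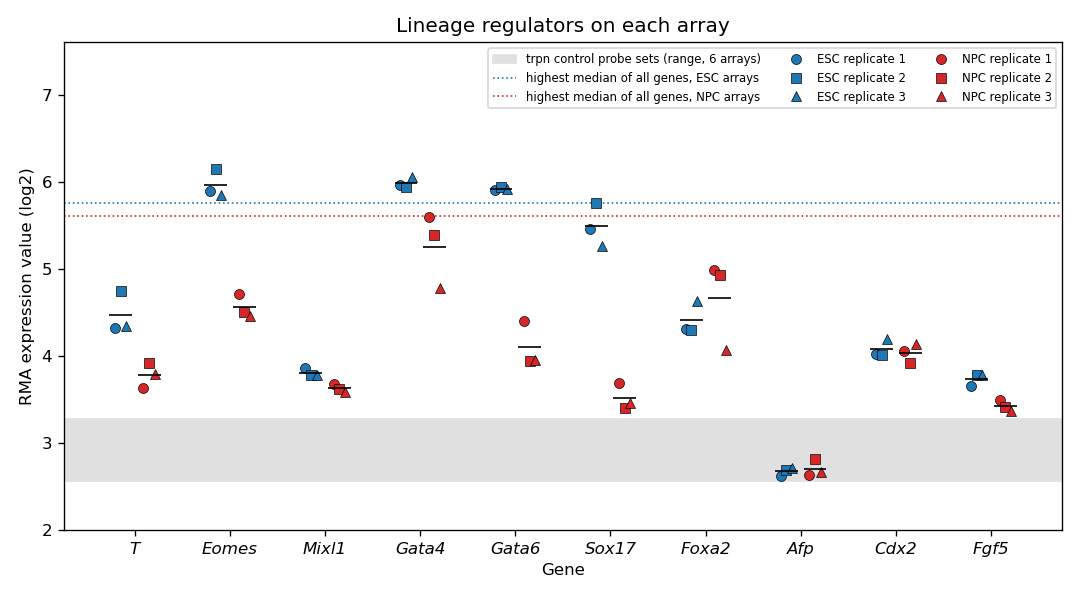
RMA expression values (log2) of the 10 regulators on each array, with ESC arrays in blue, NPC arrays in red, a marker shape per replicate and black bars at the means of 3 arrays. The grey band is the range of the trpn control probe sets (2.57 to 3.27) and the dotted lines are the highest array median of all genes in each cell type; NPC values of all 10 genes are below the NPC line.

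**Figure D2:**
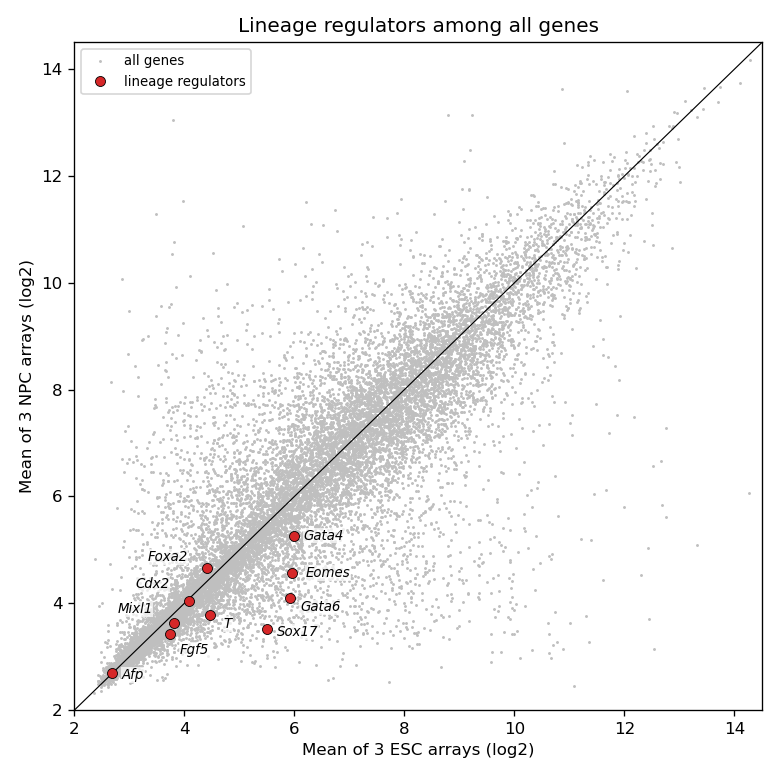
Mean log2 value in ESCs (x axis) against NPCs (y axis) for all 17144 genes (grey) and the 10 regulators (red), with the line of equal values. Sox17, Gata6, Eomes, Gata4 and T lie below the line, and the other 5 genes lie closer to it.

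The values of the regulators were also set against the array medians. Each of the 10 genes was below the median of all genes on every NPC array, and the highest NPC value among them was 5.59 (Gata4 in NPC replicate 1). In ESCs, 6 of the 10 were below the array median on every array, and 3, Eomes, Gata4 and Gata6, were above it on every array. Probe sets differ in their affinity, so the values order arrays for a gene and do not order genes, and detection calls were not used here. Pou5f1 in NPCs and Fabp7 in ESCs, where each was low, read between 3.61 and 3.85. Mixl1 and Fgf5 in both cell types, and T and Sox17 in NPCs, read at or near that level. Whether low signal limits the differences at these genes was not tested.

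Of the primitive streak genes, Eomes changed most. Eomes (ENSMUSG00000032446_at), a T-box factor needed for definitive endoderm, early mesoderm and the trophoblast, read 5.89, 6.14 and 5.84 in ESC replicates 1 to 3 and 4.71, 4.50 and 4.46 in NPC replicates 1 to 3. The lowest ESC array was 1.14 above the highest NPC array. The mean fell from 5.96 ± 0.16 to 4.56 ± 0.13 (SD, n = 3 arrays each), which is 2.64-fold (difference -1.40, standard error 0.11, adjusted p = 5.18e-05 from limma). Its percentile among all genes of an array went from 52.7 ± 2.22 to 36.1 ± 1.95 (SD, n = 3 arrays each).

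T (brachyury, ENSMUSG00000062327_at), the T-box factor that marks the streak and nascent mesoderm, read 4.32, 4.75 and 4.34 in ESCs and 3.63, 3.92 and 3.80 in NPCs. The groups did not overlap, and ESC replicate 2 stood 0.41 above the mean of the other ESC arrays. The fall from 4.47 ± 0.24 to 3.78 ± 0.15 (SD, n = 3 arrays each) was 1.62-fold (difference -0.69, standard error 0.14, adjusted p = 0.00518 from limma). It passed the 1.5-fold threshold narrowly, and without ESC replicate 2 the difference was -0.55 (adjusted p = 0.0118 from limma) and the gene was not called. Mixl1 (ENSMUSG00000026497_at), a homeobox factor of the streak, read 3.86, 3.78 and 3.78 in ESCs and 3.68, 3.62 and 3.59 in NPCs. All NPC arrays were below all ESC arrays, but by a gap of 0.10, and the difference of -0.18 did not pass (95% interval -0.36 to -0.00079, adjusted p = 0.0912 from limma). With each array centred on its median the difference was -0.025 (adjusted p = 0.797 from limma). The 2 equal ESC values are the same number in the table, which occurred between ESC replicates 2 and 3 at 20 genes in all.

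Of the endoderm genes, Sox17 and Gata6 differed most between the cell types. Sox17 (ENSMUSG00000025902_at), an HMG-box factor required for endoderm, read 5.46, 5.76 and 5.26 in ESCs and 3.69, 3.40 and 3.46 in NPCs. Every NPC array was at least 1.58 below every ESC array. The mean fell from 5.49 ± 0.25 to 3.52 ± 0.15 (SD, n = 3 arrays each), or 3.94-fold (difference -1.98, standard error 0.15, adjusted p = 3.03e-05 from limma). Of all genes, 4.49% fell at least as far. Its percentile went from 46.6 ± 3.47 in ESCs to 16.2 ± 3.52 in NPCs (SD, n = 3 arrays each).

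Gata6 (ENSMUSG00000005836_at), the zinc finger factor that opens the primitive endoderm program in the blastocyst, read 5.91, 5.94 and 5.92 in ESCs, the closest agreement among the 10 genes. In NPCs it read 4.40, 3.95 and 3.95, so that NPC replicate 1 was 0.45 above the mean of the other NPC arrays. The difference of -1.82 (standard error 0.13, adjusted p = 3.03e-05 from limma) is 3.54-fold, and the gap between the groups was 1.51. In percentile the gene went from 52.2 ± 0.33 in ESCs to 28.1 ± 4.59 in NPCs (SD, n = 3 arrays each).

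Gata4 (ENSMUSG00000021944_at), which acts beside Gata6 in primitive endoderm and in the heart, behaved less evenly. It read 5.96, 5.94 and 6.05 in ESCs and 5.59, 5.39 and 4.78 in NPCs, all below the ESC arrays, with NPC replicate 3 the lowest. The mean fell from 5.98 ± 0.06 to 5.25 ± 0.42 (SD, n = 3 arrays each), a difference of -0.73 (standard error 0.20, adjusted p = 0.0186 from limma) or 1.66-fold. Without NPC replicate 3 the difference was -0.50 (adjusted p = 0.00189 from limma), under 1.5-fold, and without any 1 of the ESC arrays the adjusted p lay between 0.053 and 0.069 in limma. The NPC percentile was 45.5 ± 5.51 (SD, n = 3 arrays), against 53.1 ± 0.69 in ESCs.

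Foxa2 (ENSMUSG00000037025_at), a forkhead factor of the node, definitive endoderm and floor plate of the neural tube, split the NPC arrays. It read 4.31, 4.30 and 4.63 in ESCs and 4.98, 4.93 and 4.07 in NPCs. NPC replicates 1 and 2 were above all ESC arrays and NPC replicate 3 was below them. The difference over all arrays was 0.25 (standard error 0.25, 95% interval -0.34 to 0.83, adjusted p = 0.468 from limma). Without NPC replicate 3 it was 0.54 (adjusted p = 0.00383 from limma), still under the 1.5-fold threshold. Afp (ENSMUSG00000054932_at) read 2.62, 2.69 and 2.71 in ESCs and 2.63, 2.81 and 2.67 in NPCs, overlapping groups at percentiles of 1.12 ± 0.26 and 1.42 ± 0.97 (SD, n = 3 arrays each). Its difference was 0.029 (95% interval -0.17 to 0.23, adjusted p = 0.817 from limma) on the scale of the array. All 6 values lie within the range of the trpn control probe sets, so they set no limit on a change of Afp expression.

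The trophectoderm gene and the epiblast gene were not called. Cdx2 (ENSMUSG00000029646_at), the caudal homeobox factor of the trophectoderm and later of the posterior embryo, read 4.03, 4.01 and 4.19 in ESCs and 4.06, 3.92 and 4.14 in NPCs. The groups overlapped, and the difference of -0.040 (95% interval -0.27 to 0.19, adjusted p = 0.777 from limma) turned to 0.11 when each array was centred on its median. Fgf5 (ENSMUSG00000029337_at), a secreted fibroblast growth factor that comes on as the epiblast leaves the naive state, read 3.65, 3.77 and 3.78 in ESCs and 3.49, 3.41 and 3.37 in NPCs. All NPC arrays were below all ESC arrays. The difference of -0.31 passed the adjusted p (0.0162 from limma, 95% interval -0.50 to -0.12) but is 1.24-fold, under the threshold. With each array centred on its median it was -0.16 (adjusted p = 0.143 from limma). The adjusted p was between 0.051 and 0.0613 in limma without ESC replicate 2, ESC replicate 3 or NPC replicate 2. It stayed under 0.05 without any 1 of the other arrays.

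**Figure D3:**
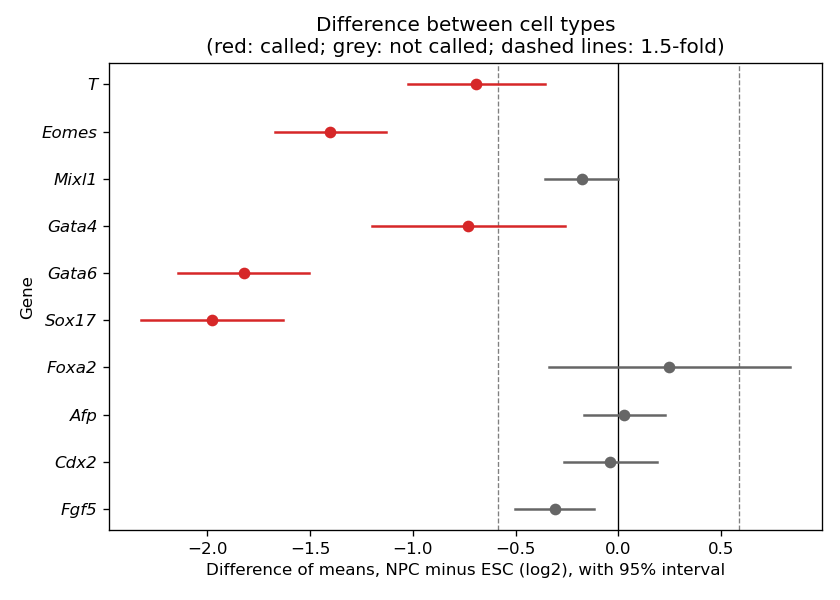
Difference of means between NPCs and ESCs (log2) for each regulator, with the 95% interval from limma, red where the gene was called and grey where it was not; the dashed lines mark 1.5-fold. The intervals of Eomes, Gata6 and Sox17 lie wholly beyond 1.5-fold, those of T and Gata4 reach back across it, and those of Mixl1, Afp, Cdx2 and Fgf5 lie within it. The values of Afp are within the range of the trpn control probe sets, so its interval sets no limit on a change of expression. Whether low signal also limits the intervals of Mixl1, Cdx2 and Fgf5 was not tested.

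The spread between replicates differed from gene to gene. The SD over 3 arrays ranged from 0.019 (Gata6 in ESCs) to 0.51 (Foxa2 in NPCs), beside a median over all genes of 0.092 in ESCs and 0.14 in NPCs. ESC replicate 3 was the highest ESC array at 5 of the 10 genes, beside 41.3% of all genes, and ESC replicate 2 at 4, beside 32.4%. ESC replicate 2 was highest for T, Eomes, Gata6 and Sox17, by 0.41, 0.28, 0.032 and 0.40 over the mean of the other ESC arrays. NPC replicate 1 was the highest NPC array at 7 of the 10 genes, among them Eomes, Gata4, Gata6, Sox17 and Foxa2, where 32.4% of all genes were highest in that array. The part of differences between cultures in these values was not tested.

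Set against the mean of NPC replicates 1 and 2, NPC replicate 3 was apart by over 0.5 at 2 of the 10 regulators, Foxa2 (-0.88) and Gata4 (-0.71), and by over 1 at none. Among all 17144 genes it was apart by over 0.5 at 2569 and by over 1 at 686. For the 3 genes with the largest falls the array changed little, since its difference was -0.078 at Sox17, -0.23 at Gata6 and -0.15 at Eomes.

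The relative Foxa1 (ENSMUSG00000035451), a forkhead factor that overlaps with Foxa2 in endoderm and ventral midbrain, showed a split of the same kind. It read 4.08, 3.99 and 4.10 in ESCs, 6.44 and 6.65 in NPC replicates 1 and 2, and 4.33 in NPC replicate 3. Every NPC array was above every ESC array, but the rise of NPC replicate 3 was a small part of that in the others. The difference over all arrays was 1.75 (standard error 0.57, adjusted p = 0.0376 from limma). Without NPC replicate 3 it was 2.49 (adjusted p = 1.52e-07 from limma), and without any 1 of the other 5 arrays the adjusted p was between 0.0926 and 0.115 and the gene was not called. With separate variances and no moderation it was not called either (adjusted p = 0.239 over all genes).

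**Figure D4:**
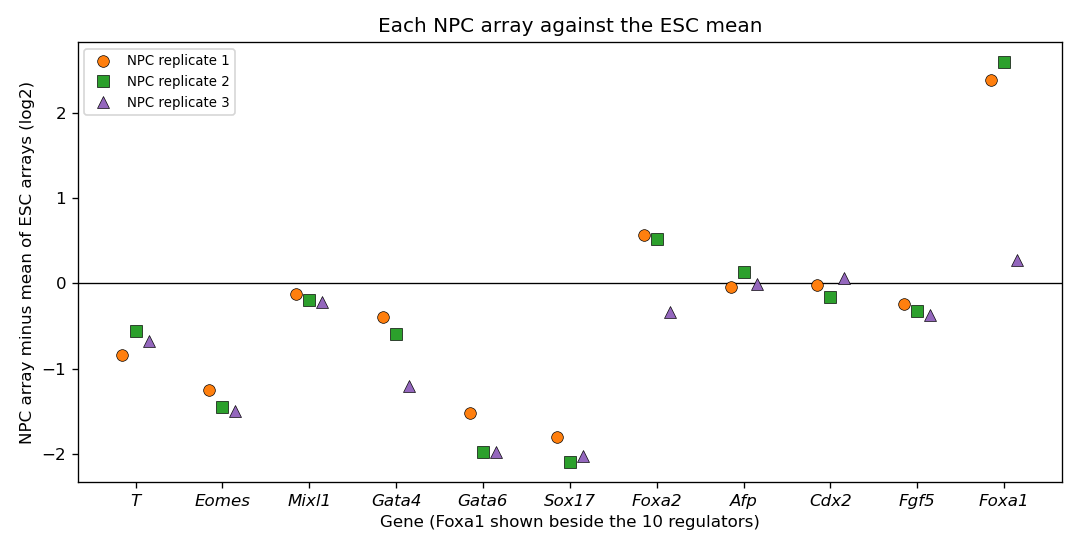
Each NPC array minus the mean of the ESC arrays (log2) for the 10 regulators and Foxa1, with a colour and marker per NPC replicate. At Foxa1 and Foxa2 replicates 1 and 2 lie together above replicate 3, while at Sox17, Gata6 and Eomes all NPC arrays lie more than 1 below the ESC mean.

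Other genes of these lineages were read from lists of further markers. The rows carry Ensembl identifiers, and all 1999 genes whose mean rose by more than 0.83 on the log2 scale (11.7% of all genes) could be named, so a listed gene that has no name here either rose by less or has no row. Of 20 further mesoderm genes 1 rose above that limit, of 21 endoderm genes 1, of 15 trophectoderm genes 0, of 10 genes of the primed epiblast 1 and of 12 fibroblast genes 1. Of 11 neural progenitor genes, 7 rose above it (Nes, Fabp7, Sox9, Olig2, Vim, Notch1 and Slc1a3). At 2 of these NPC replicate 3 was apart by over 1. It was above the mean of NPC replicates 1 and 2 by 1.27 at Sox9 and by 1.10 at Slc1a3. How many genes of the other lists fell could not be counted, since falling genes are mostly unnamed here.

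The mesoderm gene that rose was Foxc1, a forkhead factor of paraxial mesoderm and of the mesenchyme around the brain, at 3.94 ± 0.10 (SD, n = 3 arrays) in ESCs and at 5.34, 5.21 and 6.47 in NPCs. Its difference was 1.73 (standard error 0.32, adjusted p = 0.00296 from limma), and NPC replicate 3 was 1.20 above the mean of the others. With separate variances and no moderation Foxc1 was not called (adjusted p = 0.106 over all genes). The endoderm gene was Foxa1. The primed epiblast gene was Sox3, a SOX factor that is also kept in neural progenitors, which rose by 1.88 (standard error 0.15, adjusted p = 4.93e-05 from limma). The fibroblast gene was Twist1, a helix-loop-helix factor of mesenchyme, at 4.45, 4.25 and 4.14 in ESCs and 6.66, 6.35 and 7.16 in NPCs. Foxc1 and Twist1 thus rose in all 3 NPC arrays, but a rise above the limit is what allowed them to be named. The other 19 mesoderm genes and 11 fibroblast genes did not rise above that limit or have no row. The part of mesenchymal cells in the NPC cultures was not tested.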

How the data were processed

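Expression was measured on Affymetrix mouse arrays, 3 of ESCs and 3 of NPCs. The authors scanned the arrays with GeneChip Operating Software and deposited log2 values made by RMA, which corrects background, quantile normalizes over arrays and summarizes probes under the BrainCDF annotation of Ensembl genes; its version and the genome build behind it are not named in the sources used. Quantile normalization limits any shift common to most genes. Of the 17208 rows, 64 are control probe sets and were not tested. No floor or further normalization was applied.

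Groups and replicate numbers came from the sample labels. Differences were tested in R 4.3.3 with limma 3.58.1 (lmFit, then eBayes, without covariates) and adjusted by Benjamini-Hochberg over 17144 genes, and the procedure was checked on simulated data. The thresholds follow the study's methods, whose moderated Welch test was rebuilt as an alternative. With 3 arrays against 3 an exact permutation test cannot go below p = 0.1 and precision is limited by the number of arrays. A percentile is the percentage of genes on the same array that do not exceed the value.

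The 10 regulators were identified by Ensembl identifier. Names of other genes were taken from the printed tables of the study where all 6 array values were equal within 0.0001, which named 2004 genes. Those tables also hold the study's own comparisons, which were not used. The named genes are the 10 regulators, the genes of the marker lists that could be named and were called, and Pou5f1 and Fabp7. Of the neural progenitor list, 1 gene is not reported here. The regulators and lists were chosen with earlier results of these data known. RefSeq windows came from a table of GRCm38.p6. Alternatives were other tests and variance models, a replicate block, quantile normalization, median centring, filters on low values, other fold thresholds and leaving out each array. Figures were drawn with matplotlib 3.10.9 in Python 3.11.15.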

Additional observations from a re-analysis of the deposited data

How the results depend on the processing

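Eomes, Gata6 and Sox17 kept their direction and were called in all 16 alternatives that gave a value. Their differences lay between -1.48 and -1.25, -1.98 and -1.67, and -2.09 and -1.82. T was not called with separate variances and no moderation (-0.69, adjusted p = 0.0568), with each array centred on its median (-0.54) or with a fold change over 2 (-0.69), and lay between -0.77 and -0.55 with 1 array left out, the latter without ESC replicate 2. Gata4 was not called under the same alternatives (-0.73 with adjusted p = 0.174, -0.58 and -0.73), and lay between -0.90 and -0.50 with 1 array left out, the latter without NPC replicate 3. Centring moved the median difference of all genes from -0.036 to 0.12, which is the size of the shift at T and Gata4. Fgf5 was called only with no fold change threshold (-0.31). The sign of Cdx2 turned under quantile normalization (0.051), under centring (0.11) and without ESC replicate 3 or NPC replicate 2, with a range of -0.091 to 0.021 when 1 array was left out. That of Afp turned without NPC replicate 2 (range -0.025 to 0.064). Mixl1 and Foxa2 were called in none.

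Over all genes there were 5851 calls, with 2638 genes higher in NPCs and 3213 lower. With a fold change over 2 these were 3592, 1615 and 1977. Centring gave 3302 higher and 2642 lower, and quantile normalization 2974 and 2900. With separate variances 4332 were called, and 8407 with no fold change threshold. The filter at the median left none of the 10 regulators, and the filter at the 25th percentile left 6. Deviations from the cell type mean correlated at 0.026, 0.011 and -0.0064 across genes between arrays with the same replicate number. These values show little shared deviation by number. They cannot decide whether such arrays were paired, since the NPC array that stood apart enters the mean behind every NPC deviation. Whether arrays with the same number shared a day or batch was not tested. With the replicate block 5867 genes were called, and the regulators called were the same 5 genes.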
